A study of Cricetulus griseus with 8 samples.

Results

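Rab GTPases are small membrane switches that mark compartments of the endocytic and secretory pathways, and this account covers the Rab genes measured in LR73 cells that met apoptotic cells. They were taken by symbol alone, as every named row whose symbol was Rab, a number and at most 1 letter from a to d. That gave 57 of 26776 named genes, of which 40 had a mean of at least 10 normalized counts over all libraries and were tested. LR73 is a Chinese hamster fibroblast line derived from ovary cells and used as a phagocyte. The 4 libraries of 1 group held LR73 cells alone, and the 4 of the other held LR73 cells grown together with dying Jurkat cells. Jurkat, a human T cell line, had received UV-C light at 1500 mJ and a further 4 h of culture before it was added. All 8 libraries come from the 1 hamster line grown in medium with serum. The length of the co-culture, and any washing away of free Jurkat cells, are not stated in the labels.

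A Rab protein is active when it carries GTP and idle when it carries GDP. Exchange factors (GEFs) load GTP, GTPase-activating proteins (GAPs) end the active state, and GDP dissociation inhibitors (GDIs) take the prenylated protein off the membrane and carry it between compartments. On the phagosome that holds an engulfed cell, Rab5 acts early and Rab7 late, before fusion with lysosomes. Other Rabs return membrane to the surface, feed the compartment from the Golgi, or serve lysosome-related organelles. The comparison asked which of these transcripts differed between phagocytes with and without apoptotic cells.

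Depth ran from 22.7 to 29.7 M reads per library over named genes (M, mega). Alone library 1 stood apart: it lay at -25.1 on the leading principal component, and the other alone libraries between -9.13 and -5.65. Among 14 measured fibroblast markers, 10 reached the test, with Vim and Fn1 abundant, Thy1 at 0 reads, and Col1a1 and Col1a2 at means of 0.498 and 1.23 normalized counts. Of these 10, Vim was higher with apoptotic cells by 16.9% (limma adjusted p = 0.0028) and Dcn fell by 19.4% (adjusted p = 0.0022). Of 2 tested epithelial markers Cdh1 fell by 14.9% (adjusted p = 0.0439), and none of 3 tested myeloid markers was called. Among 28 measured T cell markers only 7 reached the test, of which none was called higher and 2, Cd28 and Themis, were called lower. Of all 28, 13 had more and 7 fewer reads with apoptotic cells. Of these markers 6 had no reads, Cd3d, Cd3g and Cd2 among them, Cd3e had 0 reads alone and 2 with apoptotic cells, and Ptprc 3 and 14. Lck, Zap70, Bcl11b and Ikzf1, named after their values were seen, had 0 reads alone and 9, 5, 5 and 3 with apoptotic cells. The 7 with fewer reads included Cd28 and Themis. The summed T cell list was 1543 to 1651 normalized counts per library alone and 1395 to 1474 with apoptotic cells, most of it Tcf7 and Themis, and the part of these markers in the Rab values was not tested.

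With apoptotic cells, 6 of the 40 tested Rab genes fell and none rose. The 6 were Rab32, Rab27b, Rab9a, Rab43, Rab2b and Rab40c, and they fell by 10.7% (Rab40c) to 25.3% (Rab32). A gene is called here when the limma test over all 13494 tested genes gave a Benjamini-Hochberg adjusted p under 0.05. Of all tested genes, 5.31% were called lower and 6.36% higher, together 11.7%, and of the tested Rab genes 15% were called lower. The Rab genes were measured more tightly, with a median SE of 0.048 against 0.066 for all tested genes, and 24 had a mean of at least 1000. Among all genes with a mean of at least 100, 6.32% were called lower and 7.86% higher. The median log2 fold change of the 40 Rab genes was -0.04, that of all tested genes 0.001. Of the Rab genes 28 had a negative and 12 a positive estimate, against 6689 and 6805 of all tested genes. This lean was smaller without alone library 1, where the Rab median was -0.018 and 25 estimates were negative. The median of all genes was then -0.002. At an unadjusted p under 0.05 there were 10 Rab genes, where all tested genes gave 26.5%. The edgeR and DESeq2 count tests also called no Rab gene higher, and called 6 and 7 lower, where they called 5.38% and 5.56% of all tested genes lower and 6.19% and 6.65% higher. These are levels in RNA from whole cultures, so fewer cells of a kind and less RNA per cell cannot be told apart.

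**Figure D1:**
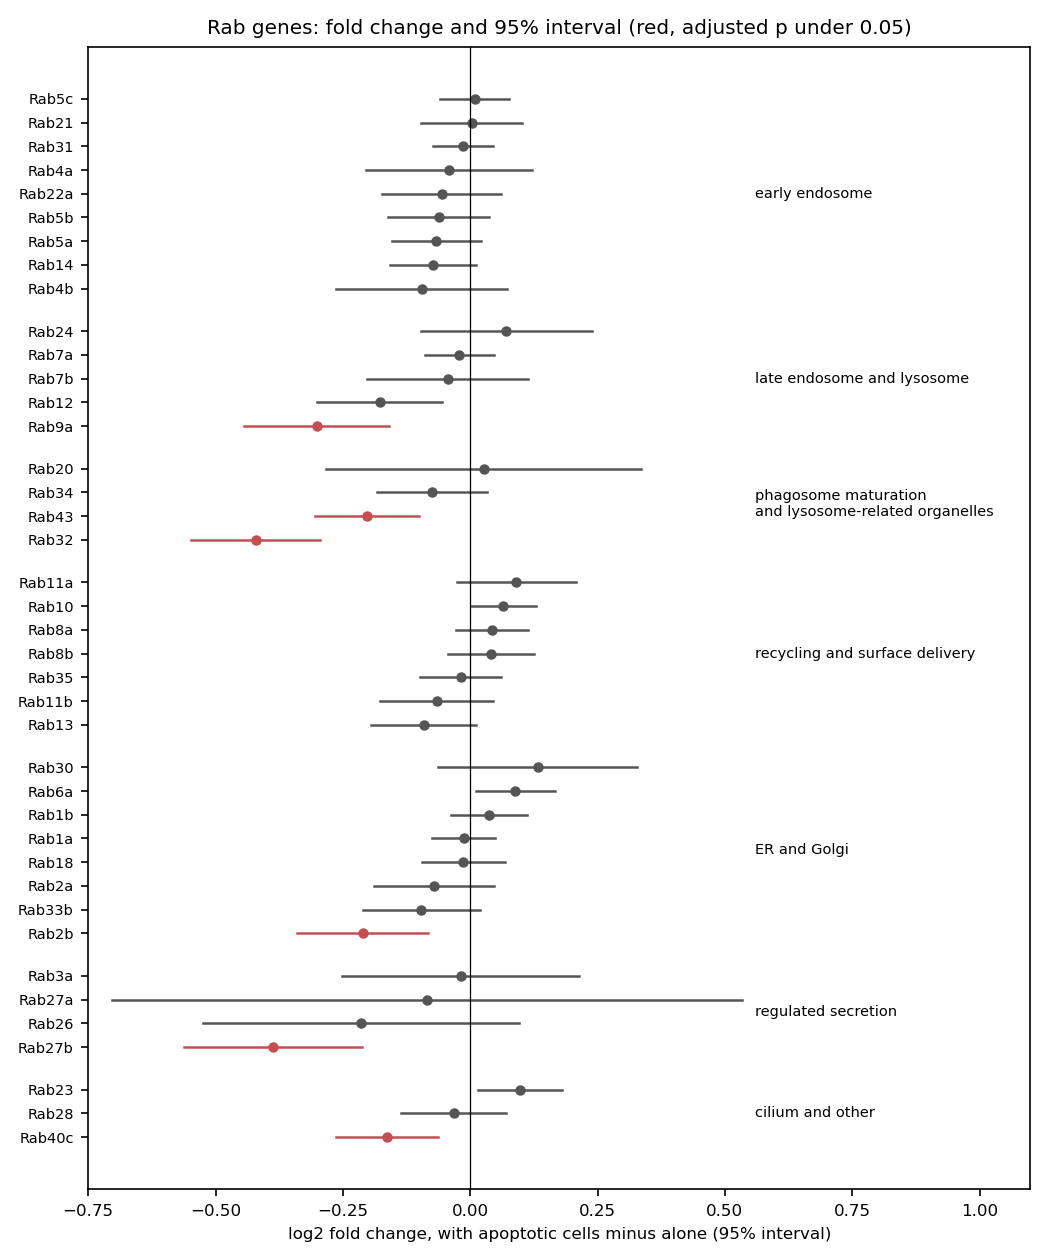
Log2 fold change (with apoptotic cells minus alone, x axis) and 95% interval of the 40 tested Rab genes, grouped by the compartment they are known for. The 6 genes in red passed the adjusted threshold and all lie below 0, from -0.42 for Rab32 to -0.16 for Rab40c.

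The groups did not overlap in 8 tested Rab genes that were lower and in 2 that were higher. Over all tested genes, 9.72% were lower and 11.4% higher with no overlap. The lower ones were Rab9a, Rab12, Rab13, Rab27b, Rab32, Rab33b, Rab40c and Rab43, and the higher ones Rab10 and Rab23. Summed over the 57 genes, Rab transcripts made up 0.424 to 0.433% of the reads in named genes in cells alone and 0.413 to 0.421% with apoptotic cells. These ranges did not overlap. In normalized counts the sums did overlap, at 104923 to 108084 alone and 103801 to 105843 with apoptotic cells. No test was made of either sum.

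None of the 9 early endosome Rabs was called, and at an unadjusted p under 0.05 there was also none. These include the 3 genes for Rab5, the GTPase that drives fusion of early endosomes and acts on young phagosomes. Rab5a had 1452, 1478, 1479.7 and 1497 normalized counts in alone libraries 1 to 4. With apoptotic cells it had 1395, 1413, 1487 and 1349, a log2 fold change of -0.07 (95% interval -0.15 to 0.02, limma adjusted p = 0.311). Co-culture library 3 lay inside the range of cells alone. Rab5b stood at 5405 ± 342 alone and 5172 ± 79.6 with apoptotic cells (SD, n = 4 per group), and its 95% interval ran from -10.5 to 2.64%. Rab5c stood at 3996 ± 94.97 and 4020.4 ± 49.5, with an interval of -4.02 to 5.49%. For Rab5c a change of 10% in either direction was outside the interval.

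Among the other early endosome genes, Rab31, which acts between the Golgi and endosomes, had the narrowest interval of any Rab gene not called. Its levels were 15674 ± 229 and 15514 ± 161 normalized counts, with an interval of -4.99 to 3.12%. Rab22a, a relative of Rab5 on early endosomes and phagosomes, had 3146, 3694, 3700.2 and 3595 normalized counts in cells alone. With apoptotic cells it had 3392, 3418, 3496 and 3264, so that alone library 1 lay below all the other 7. Its log2 fold change was -0.06 (limma adjusted p = 0.526), and without alone library 1 it was -0.11 and passed (adjusted p = 0.00505). Rab14, which links endosomes with the Golgi and is found on phagosomes, stood at 2291 ± 73.7 and 2179 ± 67.8 (log2 fold change -0.07, adjusted p = 0.256). Rab21, known for integrin endocytosis, was at 2403 ± 143 and 2404 ± 51.9, and the fast recycling genes Rab4a and Rab4b had log2 fold changes of -0.04 and -0.10, neither called.

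Of 5 tested genes of the late endosome and lysosome, Rab9a fell. Rab9a returns mannose 6-phosphate receptors, the carriers of lysosomal enzymes, from late endosomes to the Golgi. Its normalized counts were 303, 305, 275 and 272 alone, and 232, 237, 244 and 223 with apoptotic cells. Every co-culture library lay below every alone library. The log2 fold change was -0.30 (SE 0.06, limma adjusted p = 0.0143), and the call held when each of the 8 libraries was left out in turn (largest adjusted p = 0.0494).

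Rab7a, the GTPase that brings late endosomes and phagosomes to the lysosome, was not called. It had 9485, 8842, 9259 and 9218 normalized counts in cells alone and 9132, 8967, 9144 and 9015 with apoptotic cells. All 4 co-culture values lay within the range of cells alone. The log2 fold change was -0.02 with a 95% interval of -5.94 to 3.25%, so neither a fall nor a rise of 10% was inside it. Rab7b, a related gene of late endosome to Golgi traffic, stood at 703 ± 74.5 and 679 ± 8.07 (log2 fold change -0.04, adjusted p = 0.725).

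Rab12, grouped here with the late endosome and lysosome, acts on recycling endosomes and in the turnover of the transferrin receptor. It lay just outside the threshold. Cells alone had 3494, 2880, 3015 and 2941 normalized counts, and co-cultures 2740, 2669, 2742 and 2717. The groups did not overlap, with alone library 1 far above the rest. The log2 fold change was -0.18 (SE 0.06, limma adjusted p = 0.066). DESeq2 called it (adjusted p = 0.0449), and so did limma without alone library 1 (-0.12, adjusted p = 0.00336) or without alone library 2 (adjusted p = 0.0455). Over all alternatives its adjusted p ran from 0.00324 to 0.161. Rab24, linked to autophagy, stood at 893 ± 103 and 934 ± 45.1 normalized counts (0.07, adjusted p = 0.583).

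Rab32 had the largest fall of any tested Rab gene. It delivers cargo to lysosome-related organelles and is known on phagosomes that hold bacteria. Cells alone had 1245, 1065, 1119 and 1096 normalized counts, and cells with apoptotic cells 815, 896, 856 and 808. The highest co-culture library lay below the lowest library of cells alone. The change was -25.3% (95% interval -31.6 to -18.5%), or -0.42 on the log2 scale with an SE of 0.06 (limma adjusted p = 0.0014). It was called under all 17 alternatives, with adjusted p from 3.82e-08 to 0.0109.

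Rab43, which acts at the Golgi and is found on maturing phagosomes, fell as well. Its normalized counts were 1558, 1718, 1737 and 1749 alone and 1493, 1456, 1516 and 1406 with apoptotic cells, with no overlap. Its change on the log2 scale was -0.20 (SE 0.05, limma adjusted p = 0.0194). The call held without alone library 1 or 2 or without the third co-culture, and in the other 5 such fits it did not (adjusted p up to 0.067). Rab34, which acts on phagosomes and in the placement of lysosomes, stood at 3903 ± 292 and 3697 ± 61.8 (-0.08, adjusted p = 0.356). Rab20, a Rab of maturing phagosomes with only 73 to 121 reads per library, stood at 92.1 ± 17.5 and 93.0 ± 10.2. Its interval ran from -17.9 to 26.2%, so changes within it could have gone undetected. Rab38, the close relative of Rab32, was too low to be tested, with 16 reads alone and 13 with apoptotic cells.

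**Figure D2:**
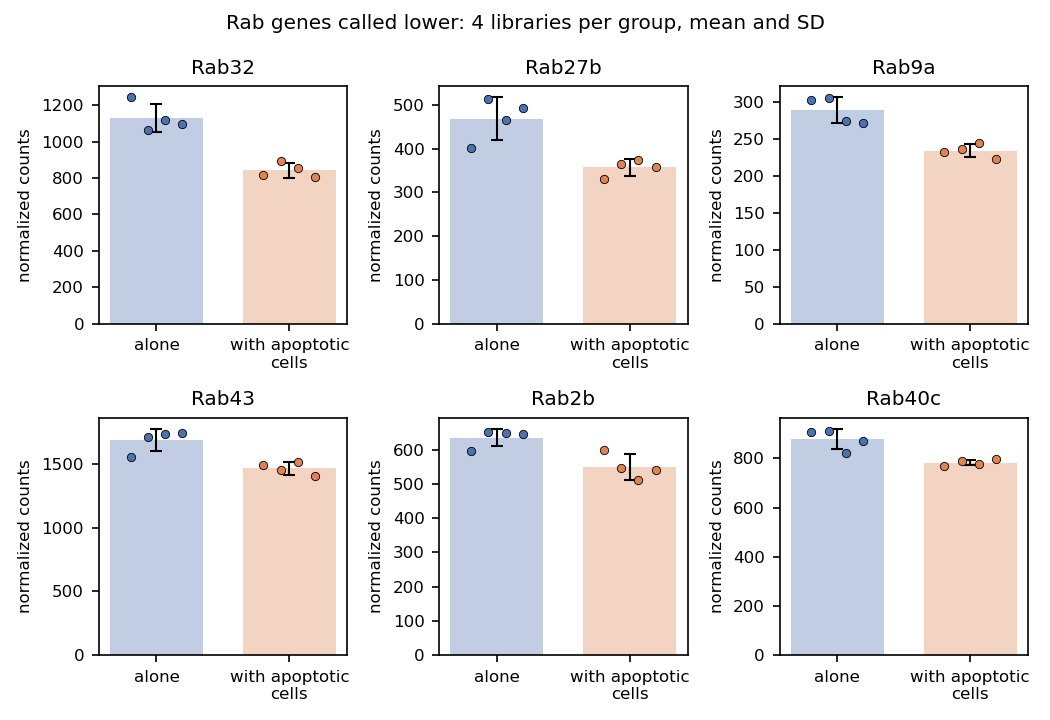
Normalized counts (y axis, from 0) of the 6 Rab genes called lower, with 1 point per library, bars for the mean and whiskers for the SD of 4 libraries. The groups did not overlap for any gene except Rab2b, where the lowest alone library (597) lay below the highest co-culture library (599).

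The 7 tested genes of recycling and surface delivery held no called gene. Rab10, which brings vesicles such as those of glucose transporters to the surface, had 7255, 7496, 7532 and 7638 normalized counts alone and 7915, 7715, 7890.3 and 7781 with apoptotic cells. Every co-culture library was above every library of cells alone, but the difference was small, 4.62% (95% interval 0.0768 to 9.38%, limma adjusted p = 0.182). Rab11a, the main GTPase of the recycling endosome, had 2513, 2070.1, 2254 and 2279 alone and 2415, 2406, 2478 and 2384 with apoptotic cells. Alone library 1 was the highest of all 8 and the other alone libraries lay below all co-cultures. With all libraries the log2 fold change was 0.09 (adjusted p = 0.305), and without alone library 1 it was 0.14 and passed (adjusted p = 0.00316). Rab11b, its close relative, stood at 2857 ± 210 and 2724 ± 66.1 (-0.07, adjusted p = 0.426).

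The exocytic pair Rab8a and Rab8b had log2 fold changes of 0.04 each, with intervals of -1.97 to 8.22% and -2.95 to 9.10%. Rab35, a GTPase of fast recycling that is also known at the phagocytic cup, stood at 2550.4 ± 69.1 and 2517 ± 72.6 (-0.02, adjusted p = 0.768). Rab13, known from cell junctions, was lower in every co-culture library, at 1497 ± 95.5 and 1403 ± 8.91, but was not called (-0.09, adjusted p = 0.242).

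Of 8 tested Rabs of the endoplasmic reticulum and Golgi, Rab2b fell. Rab2b, which works in traffic between both and with lysosomes, had 597, 650.3, 649 and 645 normalized counts alone. With apoptotic cells it had 599, 547, 510.0 and 540.1, and alone library 1 overlapped with co-culture library 1. Its log2 fold change was -0.21 (SE 0.06, limma adjusted p = 0.0402). Only the fits that left out library 1 of either group kept the call, and the other 6 ended it (adjusted p up to 0.117), as did testing without the filter on low genes (adjusted p = 0.0519). Its more abundant relative Rab2a stood at 4325 ± 356 and 4108 ± 91.9 (-0.07, adjusted p = 0.427).

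Rab1a and Rab1b, which act in transport from the endoplasmic reticulum to the Golgi, had intervals of -5.02 to 3.38% and -2.61 to 8.05%. Rab6a, of retrograde Golgi transport, was at 5509 ± 131 and 5858 ± 210.2 (0.09, adjusted p = 0.139). Rab18, found on the endoplasmic reticulum and lipid droplets, had a log2 fold change of -0.01, and its sign turned in some of the alternatives. The Golgi Rabs Rab30 and Rab33b had 0.13 (adjusted p = 0.368) and -0.10 (adjusted p = 0.267).

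Of 4 tested Rabs of regulated secretion, Rab27b fell. Rab27b docks secretory granules and exosome-bearing compartments at the membrane. It had 402, 514, 466 and 493 normalized counts in cells alone and 331, 365, 374 and 359 with apoptotic cells. No co-culture library reached the lowest library of cells alone. The change was -23.5% (95% interval -32.2 to -13.7%), or -0.39 on the log2 scale with an SE of 0.08 (limma adjusted p = 0.0116), and it was called with each library left out (largest adjusted p = 0.0459). Its relative Rab27a had only 10 to 31 reads per library, at 21.5 ± 4.61 and 21.0 ± 7.49 normalized counts. Its interval was the widest of the tested Rab genes, -38.6 to 44.8%. Rab3a and Rab26, known from synaptic and secretory vesicles, had log2 fold changes of -0.02 and -0.21 (adjusted p = 0.926 and 0.36).

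Of the 3 remaining tested genes, Rab40c fell. Rab40c belongs to the Rab40 group, whose members recruit ubiquitin ligase parts. Its normalized counts were 908, 913, 822 and 869.8 alone, and 770.3, 789.5, 777 and 795 with apoptotic cells, with no overlap. The log2 fold change was -0.16 (SE 0.05, limma adjusted p = 0.0414), and among the 8 fits that left out a library only those without alone library 1 or 3 kept the call (adjusted p up to 0.12). Testing without the filter on low genes ended it too (adjusted p = 0.0548). Rab23, known for Hedgehog signalling and cilia, had 2063, 2224, 2161 and 2181 alone and 2267, 2335, 2387 and 2246 with apoptotic cells. It was higher in every co-culture library, by 7.02%, but was not called (adjusted p = 0.122). Rab28, also of cilia, stood at 818 ± 29.6 and 799.99 ± 31.3.

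Most Rab genes that were not called had narrow intervals. Of 34, the 95% interval lay within 10% of no change in 12, within 15% in 25 and within 20% in 30. The 4 wider ones were Rab20, Rab26, Rab27a and Rab30. The coefficient of variation was above that of counting error in 31 of the 40 tested genes in cells alone and in 27 in co-cultures. Its median was 6.04% and 3.04%, where counting gives a median of 2.19%.

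The 17 genes too low for the test comprise 7 with no reads in any library, Rab17, Rab19, Rab33a, Rab39a, Rab3c, Rab6b and Rab9b. A count of 0 in all 201 M reads allows up to 0.0149 per M reads (3 reads of the total), by counting error only. The other 10 had at most 16 reads in any library. Rab42 had 36 reads alone and 39 with apoptotic cells, Rab39b 20 and 21, Rab3b 20 and 14, and Rab37 10 and 14. Rab25, an epithelial relative of Rab11, had 8 and 22, Rab40b 13 and 5, Rab44 6 and 0, Rab36 2 and 1, and Rab15 0 and 2. The gene listed as Rab7l1, an older symbol of Rab29, falls outside the symbol rule. It stood at 168 ± 15.4 and 155 ± 5.48 normalized counts (-0.12, adjusted p = 0.37).

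Related Rab genes can also be compared within a library, where library scaling and gene length cancel from the difference between groups. Of 16 pairs listed, 10 had both genes tested, and the log2 ratio of each pair was compared between groups by an exact two-sided permutation test. With 4 libraries a group the smallest p is 0.0286. After adjustment over the 10 pairs, a single pair at that p gets 0.286, so 1 pair could not pass alone. Several pairs would have had to reach that p together for any to pass. No pair passed (smallest adjusted p = 0.286). Rab11a to Rab11b was the 1 pair at that smallest p. Its log2 ratio was -0.33, -0.40, -0.32 and -0.26 in cells alone and -0.18, -0.18, -0.09 and -0.23 with apoptotic cells. All co-cultures lay above all cells alone, by 0.16 on average, and by 0.13 to 0.18 when 1 library was left out. In this ratio alone library 1 lay inside its group, although both genes were highest in that library.

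The other pairs overlapped between the groups. Rab2a to Rab2b differed by 0.14 (exact permutation p = 0.229), so the fall of Rab2b was not shown to differ from the change of Rab2a. The Rab5 pairs differed by -0.005 (Rab5a to Rab5b), -0.08 (Rab5a to Rab5c) and -0.07 (Rab5b to Rab5c). Rab27a to Rab27b differed by 0.30 (exact permutation p = 0.429), and its SD over the 4 co-cultures was 0.60.

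**Figure D3:**
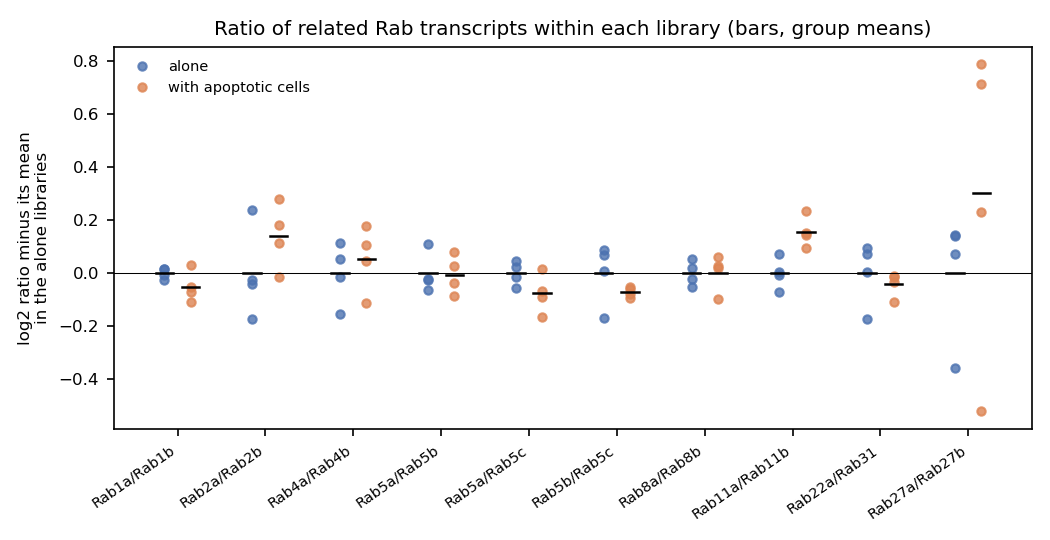
Log2 ratio of 10 pairs of related Rab transcripts in each library (points, y axis), set to 0 at the mean of the alone libraries, with bars for the group means. Rab11a to Rab11b is the only pair shown whose groups do not overlap, 0.16 higher with apoptotic cells.

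The number of called Rab genes moved with alone library 1. That library was the highest of its group in 19 and the lowest in 12 of the 40 tested Rab genes (47.5% and 30%). Of all tested genes it was the highest in 39.4% and the lowest in 39.6%, and so at one end of its group in 79.0%. Without it, 10 Rab genes were called lower and 2 higher, where 12.5% and 13.4% of all genes were. All 6 falls remained. Rab5b (-0.11, adjusted p = 0.00293), Rab7b (-0.12, adjusted p = 0.0444), Rab12 and Rab22a joined them, and Rab11a and Rab24 (0.14, adjusted p = 0.0302) were higher. Leaving out another library gave 3 to 5 falls and no rise. Rab32, Rab27b and Rab9a were called in each of these 8 fits. In the fits that kept alone library 1, 2.64% (without co-culture library 1) to 4.42% (without alone library 2) of all genes were called lower. Those fits called 3.08% to 5.45% of all genes higher.

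**Figure D4:**
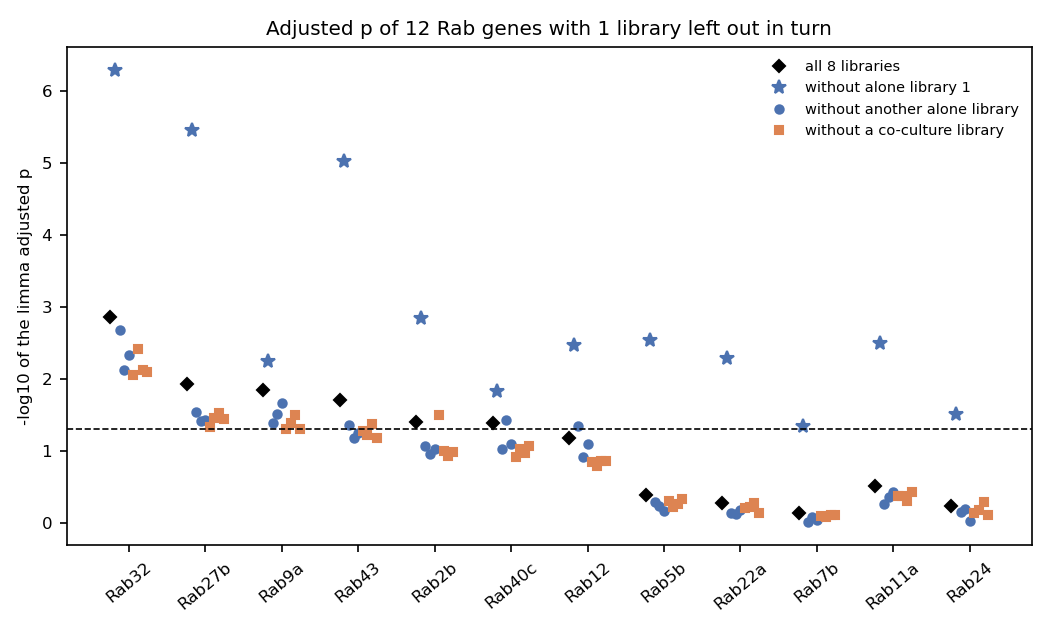
Negative log10 of the limma adjusted p (y axis) for the 6 called Rab genes and the 6 that joined them without alone library 1, with all 8 libraries (diamonds) and with each library left out. Above the dashed line the adjusted p is under 0.05, as for Rab32, Rab27b and Rab9a at every point.

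In the authors' deposited table, 7 Rab genes had an adjusted p under 0.05, all lower, where 5.48% of the genes with an adjusted p were. These were the 6 genes above and Rab12, whose deposited log2 fold change was -0.17. For Rab32 the authors' deposited table gives a log2 fold change of -0.38, and for Rab27b -0.33.

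The genes that load, release and carry out the work of Rabs were taken from 6 lists of regulators and effectors. Of 142 tested, 5 rose and 9 fell, together 9.86% where all tested genes gave 11.7%, a share near the background. The median log2 fold change was -0.01. Without alone library 1, 13 of the 142 rose and 38 fell, where 13.4% and 12.5% of all genes did. The share that fell was then above that of all genes, and the share that rose below it.

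Of 8 genes for GDI, escort and prenylation proteins, 2 rose and 1 fell. Gdi2, the GDI expressed in most cells, had 11154, 10721, 10759 and 11053 normalized counts alone and 11719, 11753, 12067 and 11935 with apoptotic cells, with no overlap. It rose by 8.68% (log2 fold change 0.12, SE 0.03, limma adjusted p = 0.0216). Chm, the Rab escort protein that presents new Rabs for prenylation, rose from 399 ± 24.6 to 465 ± 20.05 (adjusted p = 0.0379). Rabif, which binds nucleotide-free exocytic Rabs, fell from 632 ± 22.6 to 556 ± 14.6 (adjusted p = 0.0272). Each of these 3 calls was lost when 1 of several libraries was left out (largest adjusted p 0.0788, 0.117 and 0.083).

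Among 34 tested exchange factors 1 rose and 1 fell. Rin1, a Ras effector that activates Rab5, had 604, 720.3, 739.8 and 736 normalized counts alone and 1049, 1036, 1025 and 1009 with apoptotic cells. That is a rise of 47.5% (log2 fold change 0.56, SE 0.06, limma adjusted p = 0.000482), the largest among called Rab regulators, and it held with each library left out (largest adjusted p = 0.00384). Hps1, which with Hps4 forms the exchange factor of Rab32 and Rab38, fell. It had 1434, 1458, 1499.98 and 1456 alone and 1252, 1244, 1229 and 1359 with apoptotic cells (log2 fold change -0.20, adjusted p = 0.0122), and was called with each library left out. Hps4, named after its values were seen, stood at 1082 and 956 on average (-0.18, adjusted p = 0.121). Mon1a and Mon1b, parts of the exchange factor of Rab7, had log2 fold changes of 0.16 and -0.05 and were not called (adjusted p = 0.0666 and 0.589). Without alone library 1 both passed limma's test, in opposite directions, Mon1a at 0.19 (adjusted p = 0.0072) and Mon1b at -0.11 (adjusted p = 0.0459).

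Of 31 tested TBC-domain GAPs, Tbc1d8b rose and Tbc1d8 and Tbc1d17 fell. Tbc1d8b went from 944 ± 85.1 to 1155 ± 40.3 normalized counts (0.30, adjusted p = 0.0149). Its relative Tbc1d8 went the other way, from 239 ± 18.1 to 195 ± 5.55 (-0.29, adjusted p = 0.0248), and Tbc1d17 from 659 ± 39.5 to 564 ± 18.2 (-0.22, adjusted p = 0.0234). Each of the 3 lost its call when some single libraries were left out.

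Of 20 tested effectors of Rab5 and the early endosome, 2 fell and none rose. Appl2, an adaptor that binds Rab5 on signalling endosomes, fell from 631 ± 22.5 to 524 ± 30.8 (-0.27, adjusted p = 0.0114), in every left-out fit as well. The sorting nexin Snx1, a retromer partner, fell from 1585 ± 39.7 to 1445 ± 35.1 (-0.13, adjusted p = 0.0418), a call lost in 6 of the 8 left-out fits. Eea1, the tether that Rab5 recruits to early endosomes, had 1713, 2005, 1950 and 2049.8 normalized counts alone and 2138, 2100, 2215 and 2087 with apoptotic cells. It was higher in every co-culture library but not called (0.15, adjusted p = 0.112). Without alone library 1, its lowest library, it passed (0.09, adjusted p = 0.0339).

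Of 22 tested effectors of Rab7 and the late endosome, 2 fell and none rose. Both belong to the HOPS complex, the tether that Rab7 uses for fusion with lysosomes. Vps11 had 3884, 3963, 3802 and 3958 normalized counts alone and 3351, 3289, 3284 and 3469 with apoptotic cells. The log2 fold change was -0.22 (SE 0.03, limma adjusted p = 0.00213), and it held with each library left out (largest adjusted p = 0.013). Vps41 fell from 2362 ± 54.2 to 2153 ± 47.6 (-0.13, adjusted p = 0.0298), a call lost in 6 left-out fits. The other HOPS subunits in the list, named after their values were seen, were not called: Vps33a had -0.09, Vps16 -0.05, Vps18 -0.06 and Vps39 -0.01. Rilp, which links Rab7 to dynein, stood at 170 ± 6.001 and 158 ± 10.5 (adjusted p = 0.371).

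Of 27 tested effectors of recycling, secretion and motors, Mical1 fell and Kif20a rose. Mical1, an actin oxidising enzyme bound by Rabs, went from 3939 ± 103 to 3393 ± 70.7 (-0.21, adjusted p = 0.00267). Kif20a, a kinesin first known for binding Rab6 and also a motor of cytokinesis, went from 2134 ± 126 to 2585 ± 25.5 (0.28, adjusted p = 0.00326). Both calls held with each library left out (largest adjusted p 0.0156 and 0.0169).

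**Figure D5:**
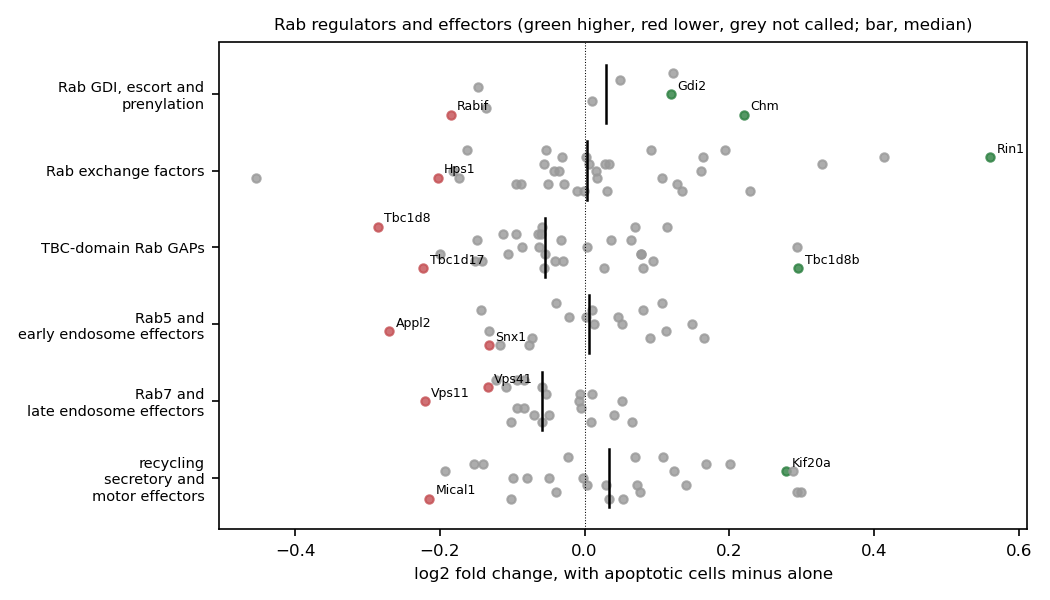
Log2 fold change (x axis) of the 142 tested Rab regulators and effectors in 6 lists, 1 point per gene, with a bar at the median of each list. The 5 genes that rose are green and the 9 that fell red, and Rin1 has the largest rise of these, 0.56.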

How the data were processed

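RNA from 8 cultures was sequenced (4 of phagocytes alone, 4 of co-cultures). Per the labels' protocols, mRNA libraries followed the TruSeq method. The submitters' processing notes name FastQC, STAR, featureCounts and DESeq2, with no build or version. No label states the strand setting or how human reads were kept apart, so reads shared between species or near-identical genes may be counted under a hamster Rab gene. The authors deposited a signal per gene and library: whole read numbers scaled by a size factor (100% of values whole within 0.01 reads). Per the file headers, the deposited table also holds the authors' log2 fold change and test score. The deposited p-values are the authors' own. Its 8 value columns all begin with GFP, which no label explains, and were matched to samples by their number and by the letters AC for apoptotic cells. Reads in a row with no gene name (0.14 to 0.176%) were left out.

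limma-trend (limma 3.58.1, R 4.3.3) was fitted to log2(normalized count + 1) of the 13494 genes whose mean was at least 10, with group as the only term and Benjamini-Hochberg adjustment over all of them. Fold changes on this scale understate those of low genes. Alternatives were edgeR 4.0.16 (quasi-likelihood test) and DESeq2 1.42.0 on the recovered reads, TMM scaling, pseudocounts of 0.5 and 5, no filter, a mean of at least 100, array weights, a replicate block and each library left out. Named were any Rab gene, up to 3 called genes per direction of each regulator list, and a fixed set, of which 1 gene is not reported here. The design text speaks of biological replicates without saying how cultures were kept apart, so p-values measure the spread between these libraries. Members and lists were chosen with earlier results of these data known. The fit was also run on simulated counts, drawn with the same spread for all genes and libraries. No simulated library stood apart as alone library 1 does, so that run does not show how the fit handles it.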

Additional observations from a re-analysis of the deposited data

Results flagged for a closer look

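In 3 of the 80 groups of 4 libraries examined (40 Rab genes, 2 groups each), 1 library lay far from the other 3, where chance gives about 1 in 20 groups. Rab2b had 597 normalized counts in alone library 1, below the 645 to 650.3 of the other alone libraries. Rab43 had 1558 in alone library 1, below 1718 to 1749. Rab33b had 449 in co-culture library 2, below 490.2 to 496.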

How the results depend on the processing

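Rab32, Rab27b and Rab9a were called lower under all 17 alternatives. Same-numbered libraries did not deviate together (correlations -0.03, 0.07, 0.01 and -0.09), so the numbers are not read as pairs. With a replicate block 3 Rab genes were called lower (2.96% of all genes) and none higher (3.69% of all genes). With it 3 regulators rose and 5 fell. Without the filter on low values 4 Rab genes were called lower (3.06% of all genes). Array weights gave 2 Rab genes higher and 9 lower, and 13 regulators higher and 34 lower (13.4% and 12.4% of all genes). With each library left out, Rab genes called lower numbered 3 to 10 and higher 0 to 2. Regulators called higher numbered 2 to 13 and lower 4 to 38. Over the same fits 2.64 to 12.5% of all genes were called lower and 3.08 to 13.4% higher. The highest of each came without alone library 1. Signs turned only among genes or pairs that were not called. In left-out fits the log2 fold change ran from -0.035 to 0.0070 for Rab18, -0.071 to 0.14 for Rab20, -0.015 to 0.044 for Rab21, -0.25 to 0.18 for Rab27a and -0.079 to 0.065 for Rab3a. It ran from -0.092 to 0.0075 for Rab4a and -0.0064 to 0.020 for Rab5c, and the ratio difference from -0.033 to 0.032 for Rab5a to Rab5b and from -0.018 to 0.035 for Rab8a to Rab8b. Array weights gave 0.0018 for Rab18 and 0.071 for Rab3a, and edgeR -0.00063 for Rab21. The cause was not tested. Rab20, Rab26, Rab27a and the untested genes had few reads. The coefficient of variation of Rab20 was 19.0% alone and 11.0% with apoptotic cells, where counting gives 10.4%. For Rab26 it was 11.2% and 18.3%, where counting gives 11.9%. For Rab27a it was 21.5% and 35.7%, where counting gives 21.5%. What widened their intervals was not tested.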
